A study of Mus musculus with 2 samples.

Results

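The genes described here were found in one captured area of mouse cortical layer 5 and were at or near 0 in the other. They are the nuclear protein-coding genes with a level of at least 3 TPM (read counts corrected for transcript length and for library depth) in one library, at most 0.1 TPM in the other, and an estimated count of at least 30 reads in the higher one. Spp1, Crh, Pdyn and Cartpt were left out by the same rule, and 3 of the 4 met the limits. Of 21461 nuclear protein-coding genes, 60 met it. Replicate 1 held 44 of them (0.205%) and replicate 2 held 16 (0.0746%). The genes were selected on these TPM values and counts, so the differences between the areas are given as a description, with no test.

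The study took tissue of layer 5 of the cerebral cortex from a wild-type male C57Bl6 mouse aged 8 months (strain given as B6NCrl) by laser capture, an area of 8000 square microns for each library, entered as 50 cells. There is 1 group with 2 libraries, called biological replicates 1 and 2, and both carry the same donor identifier, so the spread between them is a spread between areas and library preparations and no spread between animals is measured. RNA was made into libraries by a Smart-seq protocol, which amplifies whole transcripts from few cells, with spike-in RNA added. The estimated counts summed to 26059117 in replicate 1 and 28276843 in replicate 2. At 1 TPM or more, 11808 nuclear protein-coding genes were present in replicate 1 and 11651 in replicate 2, and mitochondrial genes took 5.77% of the counts of replicate 1 and 5.08% of those of replicate 2. Spike-ins took 7.19% in replicate 1 and 7.94% in replicate 2. All 10 genes of a layer 5 marker list were at 1 TPM or more in both areas, with summed levels of 3151 TPM in replicate 1 and 3869 TPM in replicate 2.

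An area of this size holds few cells. A transcript made by a rare cell type, such as a particular class of inhibitory interneuron, a microglial cell or a vessel-associated cell, is in the sample when such a cell or its process was cut out. Layer 5 itself is known for its large projection neurons, which send axons out of the cortex. Fewer cells of a type and less RNA per cell cannot be told apart in such a pool.

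The name of the set holds with one limit. Of the 60 genes, 37 had 0 reads in the other area, 27 held by replicate 1 and 10 held by replicate 2. The other 23 had between 1 and 5 reads there. One read in the lower library was worth more than 0.1 TPM for 2 of the genes held by replicate 1 and 1 of those held by replicate 2, so those could pass only with 0 reads. Where the lower library had 0 reads the fold is given as a lower bound against 3 reads, and where it had reads the ratio of counts per library total carries an exact 95% interval. Both cover counting error only, since no molecular identifiers are described for these reads. Each "at least" and each interval below is meant in that sense and does not cover loss or uneven amplification of transcripts.

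**Figure D1:**
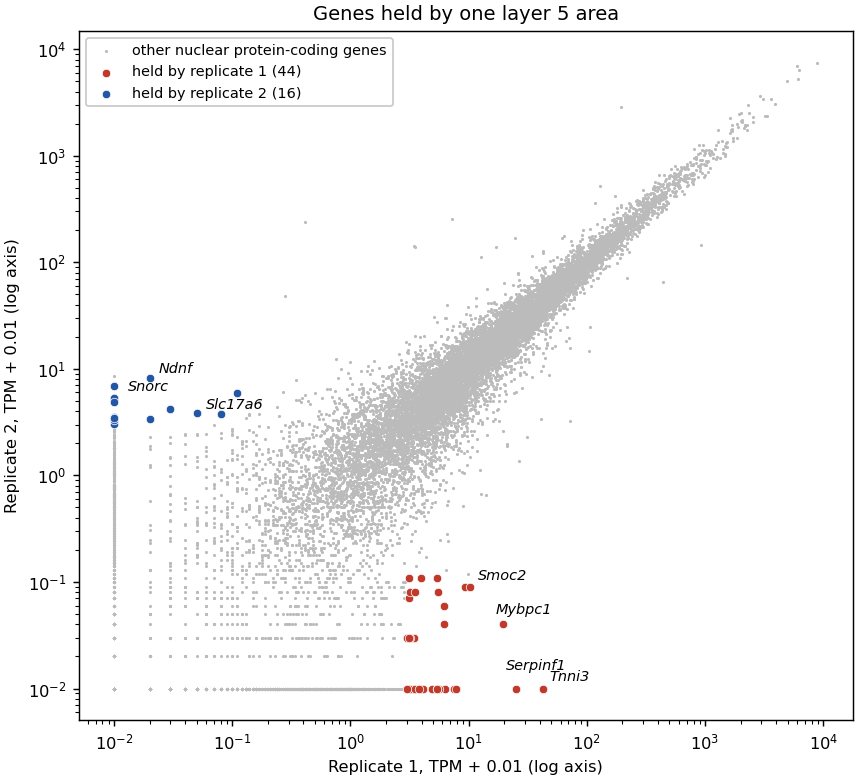
Level of every nuclear protein-coding gene except the 4 left out in replicate 1 (horizontal axis) and replicate 2 (vertical axis), as TPM + 0.01 on log axes, with each point 1 gene. The 44 genes held by replicate 1 (red) lie along the bottom and the 16 held by replicate 2 (blue) along the left, and Tnni3, at 42.2 TPM in replicate 1, lies farthest out.

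The set was small against the expressed genes, and most of it lay close to the lower limit of 3 TPM. Spp1, Crh, Pdyn and Cartpt are left out of all counts of this paragraph. Among the genes at 3 TPM and 30 reads or more, 0.454% of 9688 in replicate 1 and 0.165% of 9717 in replicate 2 were near 0 in the other area. In the class between 3 and 5 TPM these were 26 of 1322 genes in replicate 1 and 10 of 1257 in replicate 2. Between 5 and 10 TPM they were 14 of 2036 in replicate 1 and 6 of 1942 in replicate 2. At 10 to 20 TPM, replicate 1 had 2 of 2006 and replicate 2 had 0 of 2024, and at 20 to 50 TPM replicate 1 had 2 of 2136 and replicate 2 had 0 of 2210. Apart from the genes left out, no gene at 50 TPM or more was near 0 in the other area, out of 2188 in replicate 1 and 2284 in replicate 2.

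**Figure D2:**
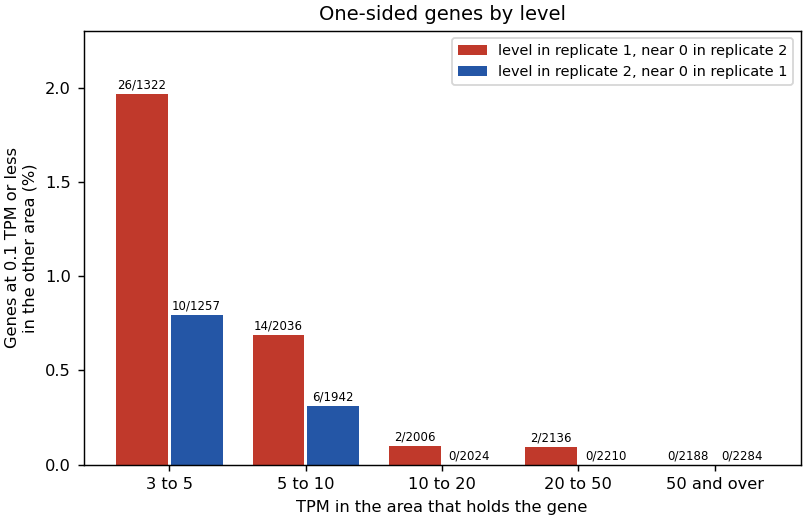
Share of genes at 0.1 TPM or less in the other area, in percent, by the TPM class of the area that holds them; each bar carries its number of such genes over all genes of the class. The share is highest at 3 to 5 TPM, 1.97% in replicate 1 and 0.796% in replicate 2, and is 0 at 50 TPM and over. Spp1, Crh, Pdyn and Cartpt are not counted.

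The 44 genes ran from 3.01 to 42.2 TPM in replicate 1, with a median of 4.03, and the 16 ran from 3 to 8.14 TPM in replicate 2, with a median of 4.03. Together they made up 0.0323% of the counts of replicate 1 and 0.00948% of those of replicate 2. Over all genes the 2-fold calls were nearly even, while more genes had 0 counts in replicate 2 than in replicate 1. Genes at 0 counts numbered 7037 in replicate 1 and 7467 in replicate 2. A difference of more than 1 in log2(TPM + 1) was found for 775 genes higher in replicate 1 (3.61%) and 748 higher in replicate 2 (3.49%), and the median log2 ratio of the 12422 genes at 1 TPM in either area was -0.04. Of the genes outside the protein-coding class, 12 met the same limits in replicate 1 and 21 in replicate 2. Their share of all such genes was not worked out, so these counts are not read as many or few.

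**Figure D3:**
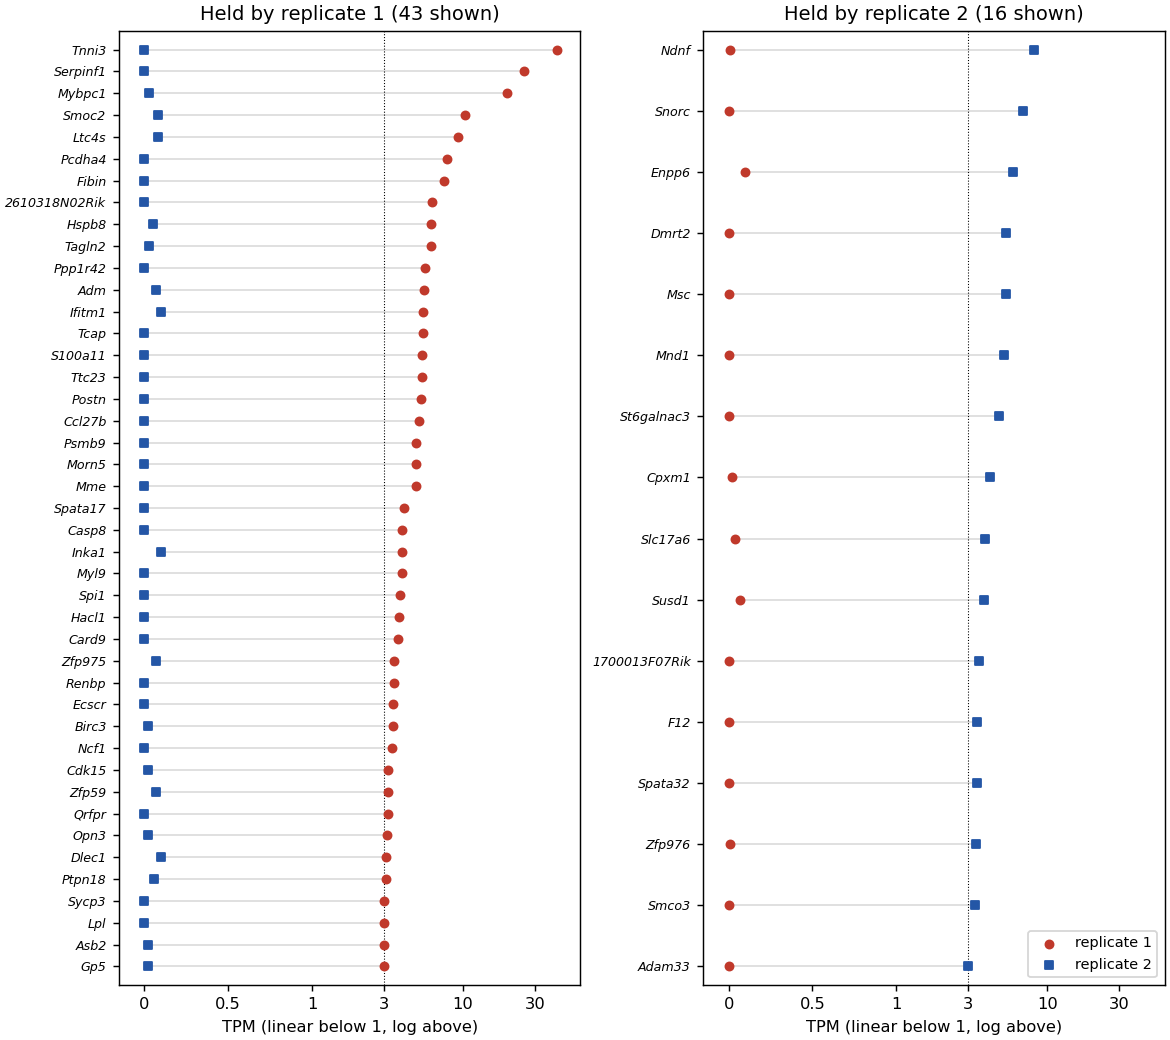
TPM of the genes of the set, all but 1, in replicate 1 (circles) and replicate 2 (squares), ordered by level, on an axis that is linear below 1 and logarithmic above; the dotted line marks 3 TPM. The left panel shows genes held by replicate 1, from Gp5 at 3.01 TPM to Tnni3 at 42.2, and the right panel the 16 genes held by replicate 2, from Adam33 at 3 TPM to Ndnf at 8.14.

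The genes are taken here by their known roles, a grouping made after their values were seen. The highest and the third highest gene of replicate 1 encode muscle proteins. Tnni3, cardiac troponin I, is the inhibitory subunit of the calcium switch on the thin filament of heart muscle. The gene lies at chr7:4518305-4524229 on the minus strand (GRCm38). It had 666 reads and 42.2 TPM in replicate 1 and 0 reads in replicate 2. Against the floor of 3 reads, 0.184 TPM there, it was at least 241-fold higher in replicate 1 by counting error alone. Of its transcripts, 83.4% of the TPM lay on a protein-coding one. Mybpc1, the slow skeletal form of myosin-binding protein C, had 790 reads and 19.5 TPM in replicate 1 and 1 read and 0.03 TPM in replicate 2. That is a ratio of 857 (95% interval 153 to 33901), and the largest share of its TPM, 48.7%, was assigned to a transcript that retains an intron. Tcap, telethonin of the muscle Z-disc, had 99 reads and 5.42 TPM in replicate 1 and 0 reads in replicate 2, at least 35.8-fold. Myl9, a regulatory light chain of smooth muscle myosin, had 87 reads and 3.93 TPM in replicate 1 and 0 reads in replicate 2.

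Most relatives of Tnni3 were present in both areas or had no reads in either. Tnni1, the slow skeletal troponin I, was at 1.22 TPM in replicate 1 and 7.14 TPM in replicate 2. Tnni2, the fast form, was the exception, at 0.96 TPM in replicate 1 and 0 TPM in replicate 2. Tnnt1, which lies beside Tnni3, with 1923 bases between them, was at 3.92 TPM in replicate 1 and 3.94 TPM in replicate 2. Its neighbour on the other side, Syt5, a synaptotagmin, was at 86.9 TPM in replicate 1 and 119 TPM in replicate 2. Tnnt2 was at 6.95 TPM in replicate 1 and 2.58 TPM in replicate 2. Tnnc1, the slow and cardiac calcium-binding subunit, was at 3.06 TPM in replicate 1 and 1.88 TPM in replicate 2, while Tnnt3 and Tnnc2 had 0 reads in both areas. So 5 of the 8 troponin genes had 1 TPM or more in replicate 1 and 4 in replicate 2.

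A list of 34 genes of striated muscle had a summed level of 181 TPM in replicate 1 and 102 TPM in replicate 2. In replicate 1, 9 were at 1 TPM or more, and in replicate 2, 8 were. On the scale of TPM + 1, 3 were more than 2-fold higher in replicate 1 and 1 in replicate 2, against 3.61% and 3.49% of all genes, with a median log2 ratio of 0. Myl4 and Acta1 carried most of the sum. Myl4 was at 68.8 TPM in replicate 1 and 48.7 TPM in replicate 2. Acta1 was at 24.8 TPM in replicate 1 and 30.3 TPM in replicate 2. Low genes with reads in replicate 1 and 0 in replicate 2 included Myh7 with 83 reads, Myh2 with 24.4, Myod1 with 15 and Nppa with 10. Pln, Ttn and Myoz2 lay the other way, with 17, 5 and 0 reads in replicate 1 and 65, 62 and 5 reads in replicate 2. Actc1 and Myh6, defining genes of heart muscle, had 0 reads in both areas. Ttn was at 0 TPM in replicate 1 and 0.03 TPM in replicate 2. Des was at 0 TPM in replicate 1 and 0.02 TPM in replicate 2. In the list 11 genes had 0 reads in replicate 1 and 18 in replicate 2. Tnni3 and Mybpc1 were the only genes of it that met the rule.

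The stretches before the RefSeq start sites of the 3 highest genes of replicate 1, and of Dmrt2, the highest in reads among those with 0 reads in replicate 1, are printed as examples of the set, chosen by level and not for their motifs. They are 250 bases each, on the minus strand at chr7:4522529-4522778 for Tnni3, chr11:75422624-75422873 for Serpinf1 and chr10:88605153-88605402 for Mybpc1, and on the plus strand at chr19:25672161-25672410 for Dmrt2 (RefSeq, GRCm38.p6). Capitals mark the E-box, CANNTG, a motif read by helix-loop-helix factors.
Tnni3: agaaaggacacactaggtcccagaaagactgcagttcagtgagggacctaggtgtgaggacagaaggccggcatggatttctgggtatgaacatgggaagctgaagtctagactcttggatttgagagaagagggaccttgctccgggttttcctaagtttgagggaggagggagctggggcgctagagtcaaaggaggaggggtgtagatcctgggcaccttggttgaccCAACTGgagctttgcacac
Serpinf1: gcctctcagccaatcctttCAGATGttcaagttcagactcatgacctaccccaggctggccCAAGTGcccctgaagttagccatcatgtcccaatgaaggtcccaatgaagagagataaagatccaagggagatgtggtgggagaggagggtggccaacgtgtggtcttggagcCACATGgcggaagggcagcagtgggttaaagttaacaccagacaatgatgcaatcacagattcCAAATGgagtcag
Mybpc1: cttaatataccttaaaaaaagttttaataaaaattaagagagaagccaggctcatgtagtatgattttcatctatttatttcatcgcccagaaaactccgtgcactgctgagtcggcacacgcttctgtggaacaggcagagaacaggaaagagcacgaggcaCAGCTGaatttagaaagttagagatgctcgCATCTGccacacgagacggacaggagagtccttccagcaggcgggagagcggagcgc
Dmrt2: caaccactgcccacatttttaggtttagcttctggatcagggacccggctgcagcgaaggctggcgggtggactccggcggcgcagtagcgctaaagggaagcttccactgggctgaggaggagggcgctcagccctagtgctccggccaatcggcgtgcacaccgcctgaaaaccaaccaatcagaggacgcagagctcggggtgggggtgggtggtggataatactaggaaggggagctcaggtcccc
The sequences carried 1, 4, 2 and 0 E-boxes. None held any of the other 3 motifs searched, on either strand. The start used for Tnni3 lies 1701 bases from the start of the gene in the annotation used for coordinates.

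Promoters could be matched for 46 of the 60 genes, 35 held by replicate 1 and 11 by replicate 2, out of 16316 promoters in all. An E-box on either strand was found in 54.3% of the 35, in 72.7% of the 11, in 62.2% of all promoters and in 55.4% of those of genes at 3 TPM or more in both areas. The GC box, GGGCGG, was found in 45.7% of the 35 and 45.5% of the 11, against 44.8% of all promoters and 61.1% of the 7234 promoters of genes at 3 TPM or more in both areas. TATAAA was found in 1 of the 35 and 0 of the 11, against 11.8% of all promoters and 5.49% of those of genes at 3 TPM or more in both areas. GAGGAA, the core of a purine-rich element, was found in 4 of the 35 and 3 of the 11, against 22.3% of all promoters and 21.2% of those of genes at 3 TPM or more in both areas. The median number of CG dinucleotides was 7 for the genes of replicate 1, 8 for those of replicate 2, 11 for all promoters and 17 for genes at 3 TPM or more in both areas. A match says only that the letters are there.

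Secreted and matrix proteins formed the next group in replicate 1. Serpinf1, a secreted serpin also known as pigment epithelium-derived factor, had 464 reads and 25.4 TPM in replicate 1 and 0 reads in replicate 2, at least 168-fold. Of its TPM, 47.1% lay on coding transcripts and 43.6% on a transcript of the nonsense-mediated decay class, which is not counted as coding. Smoc2, a calcium-binding matrix protein, had 607 reads and 10.3 TPM in replicate 1 and 5 reads and 0.08 TPM in replicate 2, a ratio of 132 (56.1 to 407). Postn, periostin, had 359 reads and 5.29 TPM in replicate 1 and 0 reads in replicate 2, at least 130-fold. Fibin, named for a fin bud factor of fish and the 1 gene of the set with a single exon, had 350 reads and 7.50 TPM in replicate 1 and 0 reads in replicate 2, at least 127-fold. Adm, adrenomedullin, a vasodilator peptide, had 152 reads and 5.51 TPM in replicate 1 and 2 reads and 0.07 TPM in replicate 2. Smoc1, the close relative of Smoc2, was at 0.41 TPM in replicate 1 and 0.53 TPM in replicate 2. A list of 12 meningeal fibroblast genes summed to 9.42 TPM in replicate 1 and 1.05 TPM in replicate 2, with a median log2 ratio of 0. Of these, 2 were more than 2-fold higher in replicate 1 and 0 in replicate 2, against 3.61% and 3.49% of all genes. Dcn, Lum and Col3a1 had 0 reads in both areas. Mgp was at 6.52 TPM in replicate 1 and 0.27 TPM in replicate 2. Igf2 had 35 reads in replicate 1 and 0 in replicate 2, and Col1a2 had 38 in replicate 1 and 0 in replicate 2. Col1a1 had 1 read in replicate 1 and 9 in replicate 2, and Pdgfra had 99 in replicate 1 and 102 in replicate 2. A list of 14 mural cell genes summed to 29.2 TPM in replicate 1 and 7.22 TPM in replicate 2, with Acta2 at 0 in both. Only 4 were at 1 TPM or more in replicate 1 and 2 in replicate 2. Of the 14, 3 were more than 2-fold higher in replicate 1 and 0 in replicate 2, with a median log2 ratio of 0.43. Vtn alone gave 14.4 TPM of the sum in replicate 1 and 2.39 TPM in replicate 2. Vtn had 437 reads in replicate 1 and 60 in replicate 2, Pdgfrb 51 in replicate 1 and 1 in replicate 2, and Higd1b 37 in replicate 1 and 0 in replicate 2. The part of those cells in these genes was not tested.

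Among membrane enzymes and lipid enzymes, Mme, neprilysin, a peptidase of the cell surface that cleaves neuropeptides and amyloid beta, had 521 reads and 4.86 TPM in replicate 1 and 0 reads in replicate 2, at least 188-fold. Lpl, lipoprotein lipase, had 212 reads and 3.02 TPM in replicate 1 and 0 reads in replicate 2, at least 76.7-fold. Ltc4s, which makes leukotriene C4, had 106 reads and 9.29 TPM in replicate 1 and 1 read and 0.08 TPM in replicate 2. Renbp, an epimerase of amino sugars, and Hacl1, an enzyme of peroxisomal fatty acid breakdown, stood at 3.48 and 3.78 TPM in replicate 1 with 0 reads in replicate 2. Of the TPM of Hacl1, 27.9% lay on coding transcripts. Hacl1 overlaps Btd on the opposite strand, at 2.64 TPM in replicate 1 and 2.31 TPM in replicate 2. Lpl transcripts hold stretches at least 97% identical to other genes, and the posterior SD of its count, the authors' measure of reads that could belong elsewhere, was 0 in both areas.

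Several immune and stress genes were held by replicate 1. Spi1, the factor PU.1 that specifies myeloid cells, had 137 reads and 3.82 TPM in replicate 1 and 0 reads in replicate 2, at least 49.6-fold. Ncf1, a cytosolic subunit of the phagocyte oxidase, had 191 reads and 3.38 TPM in replicate 1 and 0 reads in replicate 2, at least 69.0-fold. Casp8, an initiator caspase, had 156 reads and 3.98 TPM in replicate 1 and 0 reads in replicate 2, at least 56.5-fold. The adaptor Card9, the apoptosis inhibitor Birc3, the immunoproteasome subunit Psmb9 and the interferon-induced Ifitm1 had 3.73, 3.42, 4.92 and 5.44 TPM in replicate 1, with 0, 1, 0 and 1 reads in replicate 2. For Card9 and Birc3, 79.4% and 63.8% of the TPM lay on a processed transcript without a coding frame.

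Most genes of a microglial list were also higher in replicate 1. The list of 14 genes summed to 398 TPM in replicate 1 and 132 TPM in replicate 2. Of the 14, 13 were more than 2-fold higher in replicate 1, against 3.61% of all genes, with a median log2 ratio of 1.62. No gene of the list met the rule. All 14 were at 1 TPM or more in both areas. P2ry12 was at 30.9 TPM in replicate 1 and 2.27 TPM in replicate 2. Cx3cr1 was at 8.46 TPM in replicate 1 and 3.69 TPM in replicate 2. Other subunits of the oxidase were near 0 in both areas or present in both. Ncf4 had 0 reads in both areas, Cybb 0 reads in replicate 1 and 3 in replicate 2, and Cyba was at 5.99 TPM in replicate 1 and 3.07 TPM in replicate 2. Ncf1 overlaps Gtf2ird2 on the opposite strand, at 4.22 TPM in replicate 1 and 1.05 TPM in replicate 2. Strand use in counting is not stated, so reads of the overlap cannot be told apart. Psmb8, which lies 9957 bases from Psmb9, was at 1.87 TPM in replicate 1 and 0.03 TPM in replicate 2. H2-DMb1, on the other side of Psmb9, was at 3.99 TPM in replicate 1 and 0.68 TPM in replicate 2. Psmb10, the other subunit specific to the immunoproteasome, was higher in replicate 2, at 66.8 TPM in replicate 1 and 112 TPM in replicate 2. Tap2, of the peptide transporter, was at 0.53 TPM in replicate 1 and 0.73 TPM in replicate 2. The part of microglia in the immune and stress genes held by replicate 1 was not tested.

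**Figure D4:**
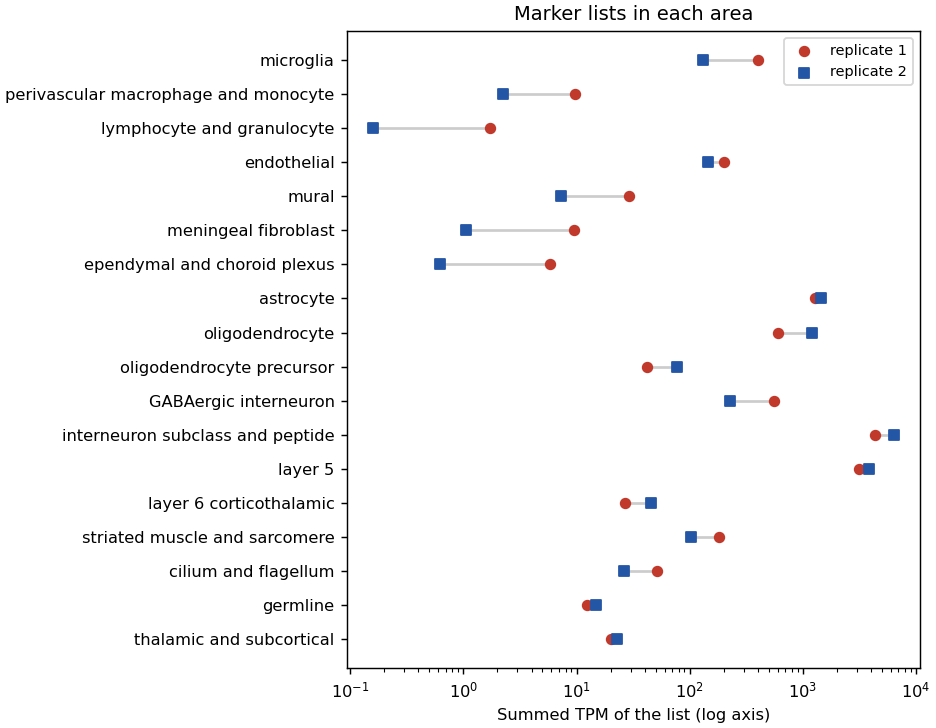
Summed TPM of 18 of the 27 gene lists, picked by hand, in replicate 1 (circles) and replicate 2 (squares) on a log axis. Of those not drawn, the erythroid list was at 16.0 TPM in replicate 1 and 586 TPM in replicate 2. The microglial list stands at 398 TPM in replicate 1 and 132 in replicate 2, and the oligodendrocyte list lies the other way, at 609 TPM in replicate 1 and 1196 TPM in replicate 2.

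Further genes of replicate 1 belong to cilia and sperm. Ppp1r42, Morn5 and Spata17, known from flagella and testis, were at 5.65, 4.91 and 4.08 TPM in replicate 1 with 0 reads in replicate 2. Of the TPM of Ppp1r42, 50.2% lay on a transcript with a retained intron. Dlec1 was at 3.11 TPM in replicate 1 and 0.10 TPM in replicate 2, where it had 5 reads, and 59.9% of its TPM lay on a transcript with a retained intron. Sycp3, of the axial core of meiotic chromosomes, had 68.6 reads and 3.02 TPM in replicate 1 and 0 reads in replicate 2, and overlaps Chpt1 on the opposite strand, at 20.9 TPM in replicate 1 and 15.6 TPM in replicate 2. Sycp3 and Mybpc1 are neighbours, 45043 bases apart, and both were held by replicate 1. A list of 32 genes of cilia summed to 51.5 TPM in replicate 1 and 26.5 TPM in replicate 2, with 5 genes more than 2-fold higher in replicate 1 and 0 in replicate 2, against 3.61% and 3.49% of all genes. On the list of 28 germline genes, replicate 1 had 3 at 1 TPM or more and replicate 2 had 4.

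Pcdha4 is the clearest case of a gene among near copies. Clustered protocadherins are cell surface proteins whose variable first exon is chosen from a set in each neuron. Pcdha4 was estimated at 696 reads and 7.84 TPM in replicate 1 and 0 reads in replicate 2. The posterior SD of these counts was 54.9 reads in replicate 1 and 22.8 reads in replicate 2, so no lower bound on the fold is given. Of the 14 rows of the alpha cluster, 8 were higher in replicate 1 and 6 in replicate 2, and the cluster summed to 40.2 TPM in replicate 1 and 35.5 TPM in replicate 2. In replicate 2, 4 rows had 0 reads, Pcdha4, Pcdha6, Pcdha8 and one of 2 rows named Pcdha11, and in replicate 1 none did. Pcdha6 was at 2.16 TPM in replicate 1 and 0 TPM in replicate 2. In the other direction Pcdha2 was at 0.58 TPM in replicate 1 and 3.39 TPM in replicate 2. The rows share 3′ exons, with 2183 bases identical between Pcdha4 and Pcdha2, for example, so reads of those exons are divided by estimation.

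The zinc finger genes Zfp975 and Zfp976 are neighbours on chromosome 7, 17517 bases apart, and were held by opposite areas. Zfp975 had 231 reads and 3.52 TPM in replicate 1 and 4.43 reads and 0.07 TPM in replicate 2, a ratio of 56.6 (24.1 to 232). Zfp976 had 1.05 reads and 0.01 TPM in replicate 1 and 300 reads and 3.39 TPM in replicate 2, a ratio of 263 (49.2 to 10956) in favour of replicate 2. Their coding sequences are 94.6% identical over 1574 bases. A window of 90 coding bases, positions 58 to 147 counted from the first base of the start codon, shows how little separates them. Capitals mark the 5 bases that differ (GENCODE M21 transcripts).
Zfp975: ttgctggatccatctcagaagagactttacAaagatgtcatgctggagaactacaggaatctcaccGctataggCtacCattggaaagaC
Zfp976: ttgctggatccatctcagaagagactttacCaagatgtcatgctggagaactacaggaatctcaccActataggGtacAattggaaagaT
The posterior SD of each count was under 1 read in both areas. Zfp977, on the far side of Zfp976, 16979 bases away, was at 0.04 TPM in replicate 1 and 2.41 TPM in replicate 2. In replicate 2, 72.6% of the TPM of Zfp976 lay on a processed transcript. Zfp59, the other zinc finger gene of the set, was at 3.20 TPM in replicate 1 and 0.07 TPM in replicate 2. Its neighbour Zfp626 was at 1.04 TPM in replicate 1 and 0 TPM in replicate 2. Of 391 genes named Zfp, 233 reached 3 TPM in either area and these 3 met the rule.

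**Figure D5:**
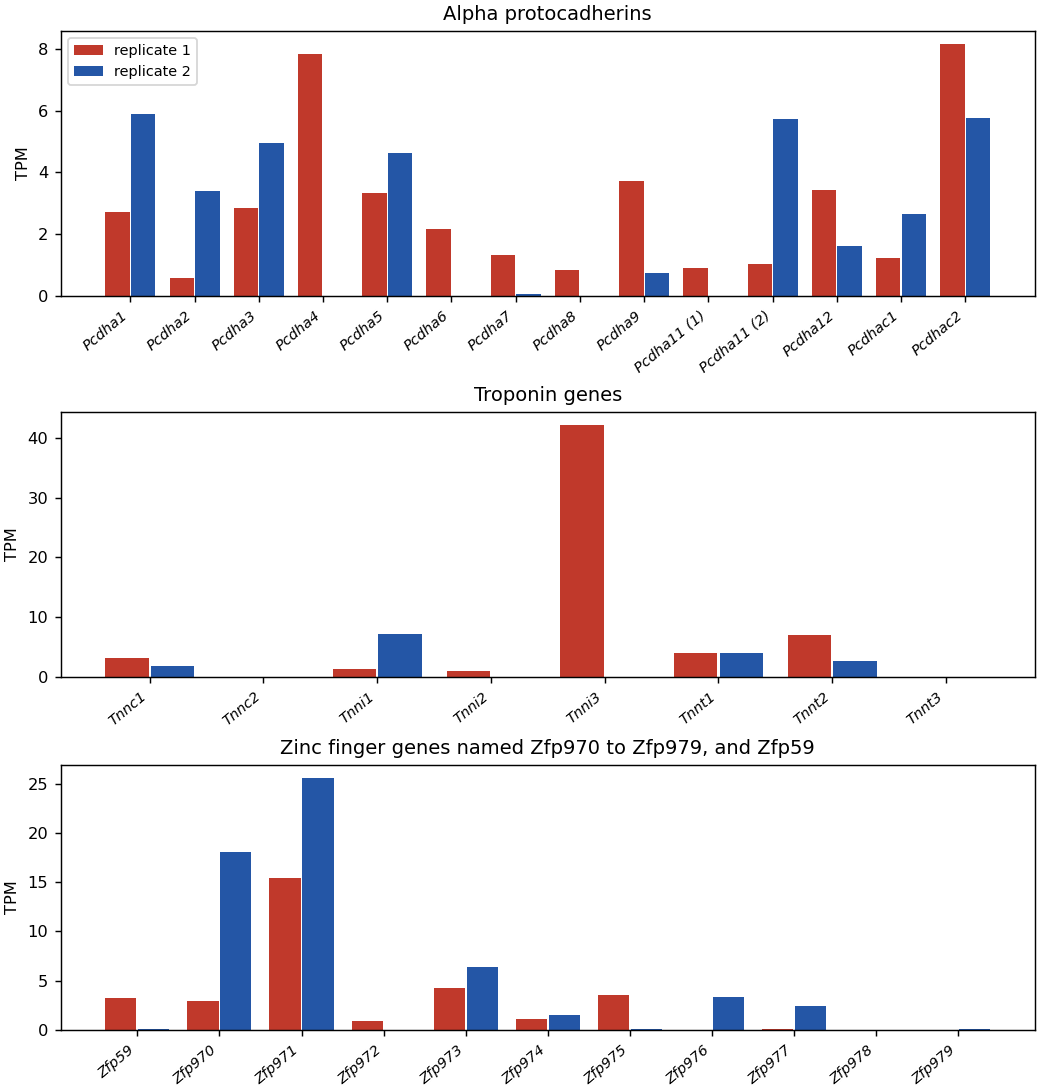
TPM of the alpha protocadherins (top), the troponin genes (middle) and zinc finger genes (bottom) in replicate 1 (red bars) and replicate 2 (blue bars). Pcdha4 is at 7.84 TPM in replicate 1 and 0 in replicate 2 while Pcdha2 is higher in replicate 2, Tnni3 is at 42.2 TPM in replicate 1 and 0 TPM in replicate 2 while Tnni1 is higher in replicate 2. Zfp975 and Zfp976 lie opposite.

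The remaining genes of replicate 1 had these levels. Hspb8, a small heat shock protein, had 224 reads and 6.17 TPM in replicate 1 and 2 reads and 0.05 TPM in replicate 2, a ratio of 122 (33.3 to 1010). Tagln2, an actin-binding transgelin, had 159 reads and 6.13 TPM in replicate 1 and 1 read and 0.03 TPM in replicate 2, a ratio of 173 (30.5 to 6857). The gene 2610318N02Rik had 158 reads and 6.28 TPM in replicate 1 and 0 reads in replicate 2, at least 57.0-fold. Asb2, a substrate adaptor of a ubiquitin ligase known in muscle, was at 3.02 TPM in replicate 1 and 0.02 TPM in replicate 2. S100a11, a calcium-binding protein, and Ccl27b, a chemokine, were at 5.39 and 5.09 TPM in replicate 1 with 0 reads in replicate 2, and both share sequence with other genes. Ccl27b is 99.3% identical over 425 bases to Ccl27a, which was at 527 TPM in replicate 1 and 463 TPM in replicate 2. Its own count of 35.7 reads had a posterior SD of 13.8. The last 8 had 3.01 to 5.36 TPM in replicate 1 and at most 2 reads in replicate 2. They were Ttc23, Inka1, an inhibitor of a PAK kinase, Ecscr, an endothelial surface protein, the kinase Cdk15, the neuropeptide receptor Qrfpr, the opsin Opn3, the phosphatase Ptpn18 and Gp5, a platelet glycoprotein. Of the TPM of Ttc23, 8.86% lay on coding transcripts and 58.4% on a processed transcript. Endothelial genes, a list of 14, summed to 202 TPM in replicate 1 and 147 TPM in replicate 2, with a median log2 ratio of -0.05. Of that sum Ly6c1 gave 77.1 TPM in replicate 1 and 37.1 TPM in replicate 2.

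Of the 16 genes of replicate 2, Ndnf had the highest level. Ndnf, a secreted factor that marks neurogliaform interneurons, lies at chr6:65671590-65712326 on the plus strand. It had 1 read and 0.01 TPM in replicate 1 and 649 reads and 8.14 TPM in replicate 2, a ratio of 598 (107 to 23660) in favour of replicate 2. Slc17a6, the vesicular glutamate transporter VGLUT2, typical of thalamic and other subcortical neurons, had 4 reads and 0.04 TPM in replicate 1 and 364 reads and 3.88 TPM in replicate 2, a ratio of 83.9 (32.5 to 309). Slc17a7, the cortical transporter VGLUT1, was at 56.2 TPM in replicate 1 and 112 TPM in replicate 2. On the thalamic list, 6 of 18 genes were at 1 TPM or more in each area, with sums of 20.1 TPM in replicate 1 and 22.9 TPM in replicate 2, while Gbx2 had 0 reads in both.

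Markers of interneuron classes differed between the areas on both sides. Pvalb was at 918 TPM in replicate 1 and 145 TPM in replicate 2. Sst was at 194 TPM in replicate 1 and 2859 TPM in replicate 2. Of other genes found in neurogliaform cells, Reln was at 6.36 TPM in replicate 1 and 30.3 TPM in replicate 2. Lamp5 was at 108 TPM in replicate 1 and 117 TPM in replicate 2. Id2 was at 365 TPM in replicate 1 and 341 TPM in replicate 2. Mybpc1, which also marks a class of Vip interneurons, was held by replicate 1, whereas Vip was at 0.03 TPM in replicate 1 and 1.95 TPM in replicate 2. On the list of 41 interneuron subclass and peptide genes, 21 were at 1 TPM or more in replicate 1 and 22 in replicate 2. Of the 41, 8 were more than 2-fold higher in replicate 1 and 7 in replicate 2, against 3.61% and 3.49% of all genes, and Lpl, Mybpc1 and Ndnf met the rule.

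The other genes of replicate 2 were of mixed kinds. Dmrt2, a DM-domain factor, had 0 reads in replicate 1 and 265 reads and 5.30 TPM in replicate 2, at least 81.4-fold higher in replicate 2. Msc, musculin, a helix-loop-helix repressor, had 0 reads in replicate 1 and 147 reads and 5.30 TPM in replicate 2, at least 45.1-fold. Enpp6, a choline phosphodiesterase of newly forming oligodendrocytes, had 1 read and 0.10 TPM in replicate 1 and 125 reads and 5.93 TPM in replicate 2, a ratio of 115 (20.3 to 4586). Oligodendrocyte genes lay the same way. A list of 12 summed to 609 TPM in replicate 1 and 1196 TPM in replicate 2, with 8 of 12 more than 2-fold higher in replicate 2, against 3.49% of all genes, and a median log2 ratio of -1.39, and the part of oligodendrocytes in the level of Enpp6 was not tested. Its relative Enpp2 was at 134 TPM in replicate 1 and 96.5 TPM in replicate 2.

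Snorc, a membrane proteoglycan first described in cartilage, had 0 reads in replicate 1 and 59 reads and 6.96 TPM in replicate 2, at least 18.1-fold. Cpxm1, a carboxypeptidase-like protein, had 1 read and 0.02 TPM in replicate 1 and 147 reads and 4.17 TPM in replicate 2, a ratio of 135 (23.9 to 5387). Mnd1, a factor of meiotic recombination, had 0 reads in replicate 1 and 90 reads and 5.21 TPM in replicate 2, at least 27.6-fold. St6galnac3, a sialyltransferase, had 0 reads in replicate 1 and 88 reads and 4.83 TPM in replicate 2, at least 27.0-fold. F12, coagulation factor XII, had 0 reads in replicate 1 and 48 reads and 3.44 TPM in replicate 2, at least 14.7-fold. Susd1 had 5 reads and 0.07 TPM in replicate 1 and 84 reads and 3.80 TPM in replicate 2, a ratio of 15.5 (6.38 to 48.9), with 80.7% of its TPM on a transcript with a retained intron. Spata32, named for testis, had 0 reads in replicate 1 and 77 reads and 3.42 TPM in replicate 2, at least 23.7-fold. Smco3 had 0 reads in replicate 1 and 117 reads and 3.33 TPM in replicate 2, at least 35.9-fold. Adam33, a metalloprotease of the cell surface, had 0 reads in replicate 1 and 77 reads and 3 TPM in replicate 2, at least 23.7-fold. The gene 1700013F07Rik, lowest of the 16 in reads, had 0 reads in replicate 1 and 44 in replicate 2. Smco3, 1700013F07Rik, Msc, Enpp6 and St6galnac3 each overlap 1 or more genes on the opposite strand. The highest of these overlapping genes was 5330417C22Rik, over 1700013F07Rik (replicate 1: 29.2 TPM, replicate 2: 29.9 TPM). Gm37859, also over 1700013F07Rik, was lower (replicate 1: 2.96 TPM, replicate 2: 1.41 TPM). Gm9947, over Msc, was at 0.02 TPM in replicate 1 and 1.09 TPM in replicate 2. BC049715, over Smco3, was at 0.09 TPM in replicate 1 and 1.60 TPM in replicate 2. Those over Enpp6 and St6galnac3 had 0 reads in both areas. For Smco3, 1964 of 2056 transcript bases are identical in BC049715, on the opposite strand. Strand use in counting is not stated, so reads of such overlaps cannot be told apart. Spata32 overlaps 1700023F06Rik on the same strand (replicate 1: 1.79 TPM, replicate 2: 1.09 TPM).

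Values just inside and just outside the limits were close. In replicate 1, Gp5 entered at 3.01 TPM and Ccl21a stayed out at 2.99 TPM, both with at most 1 read in replicate 2. Sult1a1, at 9.96 TPM in replicate 1, stayed out at 0.11 TPM in replicate 2. In replicate 2, Adam33 entered at 3 TPM and Mcm3 stayed out at 2.99 TPM, and Tnfaip3 stayed out at 0.12 TPM in replicate 1 and 3.44 TPM in replicate 2. Gm14440, at 8.52 TPM in replicate 2, stayed out on its count of 17.6 reads.

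The median length of the set was below that of all genes in its TPM range, members included. In replicate 1 that range reaches 42.2 TPM, while the median of the 44 genes was 4.03 TPM, so the sets were not matched for level. The median effective length was 1244 bases for the 44 genes of replicate 1, against 2533 bases for the 7186 genes of replicate 1 in that range. For the 16 genes of replicate 2 it was 1083 bases, against 2905 for 2646 genes. The median of the highest exon number was 8 for the genes of replicate 1 and 5 for those of replicate 2, against 10 for both comparison sets. Under 50% of the TPM lay on coding transcripts for 18.2% of the 44 genes and 12.5% of the 16, against 12.2% of the comparison genes of replicate 1 and 11.7% of those of replicate 2. The 44 genes lay on 16 chromosomes and the 16 on 10. Of 120 neighbouring genes, 68 were at 1 TPM or more in both areas, 8 only in the area that held the member, 4 only in the other area and 40 in neither. In all, 27 members overlap another annotated gene, 13 of them one at 1 TPM or more, and 18 have a stretch of at least 100 bases that is 97% identical or more in another gene. Neighbours, overlaps and such stretches were not counted for all genes, so none of these counts is read as a trait of the set. The posterior SD exceeded 5% of the count for 4 genes held by replicate 1, Pcdha4, S100a11, Ccl27b and Sycp3, and for 0 held by replicate 2, so the levels of those 4 are less certain.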

How the data were processed

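Both libraries come from 1 group, so replicate 1 was set against replicate 2. The deposited gene and transcript tables give estimated counts (expected counts of reads), TPM, posterior mean values, the posterior SD of the count as a score, and the percent of a gene's TPM on each transcript, as made by the authors on mm10 with annotation M4, per the deposited text files. The program, aligner, trimming and strand setting are, for these libraries, not given in the sources used here. Both the posterior SD and percent values were used as deposited. Symbols, classes and coordinates came from GENCODE M21 (GRCm38), promoters from RefSeq. Genes were selected and lists chosen with earlier results of these data known. Every gene of the set may be named, and reads and TPM were given for the 15 with the most reads in each area. Of those on a list, those nearest the limits, the troponins and relatives, some were given by TPM alone and some were not named. Ratios are counts per library total with exact Clopper-Pearson intervals at 95%, or bounds at a floor of 3 counts per library. No test was run, since each side is 1 library. The values of 1 gene of the set are not reported here. The selection steps were run on simulated data, and no outcome is given here, so nothing is concluded from it about the set. Alternatives covered the limits, the count minimum, the scale and shared reads. Python 3.11.15, pandas 2.3.3, scipy 1.17.1, matplotlib 3.10.9 and BLAST 2.17.0 were used. Depth was 26059117 counts in replicate 1 and 28276843 in replicate 2. List genes were compared on log2(TPM + 1).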

Additional observations from a re-analysis of the deposited data

How the results depend on the processing

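The number of genes depended on the limits, and replicate 1 held more than replicate 2 under each alternative run. Most alternatives narrow or widen the same set of genes, so they are no independent check of that excess and say little of its stability. Taking nuclear genes of every class added 12 in replicate 1 and 21 in replicate 2, the other way. For replicate 1 and replicate 2 the counts were 44 and 16 as reported, 27 and 10 with an upper limit of 0 TPM, 71 and 41 with 0.5 TPM, 221 and 125 with a minimum of 1 TPM, and 4 and 0 with a minimum of 10 TPM. A minimum of 100 counts gave 24 and 8, 10 counts or no minimum gave 44 and 17, TPM over nuclear protein-coding genes alone gave 70 and 39 (36 and 14 shared with the reported set), posterior mean TPM gave 10 and 7, CPM gave 81 and 37 (28 and 9 shared), transcript sums gave 44 and 16, and nuclear genes of every class gave 56 and 37. Leaving out genes that share reads, an alternative chosen after seeing the data, gave 31 and 13. The share near 0 among genes at 3 TPM, 0.454% in replicate 1 and 0.165% in replicate 2 as reported, was 0.102% and 0.0711% with posterior means, 0.733% and 0.340% with CPM, 0.733% and 0.422% with a limit of 0.5 TPM, and 0.279% and 0.103% with a limit of 0 TPM. Folds per nuclear protein-coding count or per spike-in count were 0.906 to 1.10 times the reported ones. Both rescale every gene by one factor, so they could not turn a direction and say nothing of stability. Leaving out a replicate gives no value, since each side is 1 library. No paired analysis was possible because there is 1 group. Depth per gene is a limit, since the rule rests on as few as 35.7 and 44 reads in the higher area.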

Other observations

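Outside the protein-coding class, 33 nuclear genes met the same limits, 12 in replicate 1 and 21 in replicate 2. No share over all genes of these classes was worked out. Of these, 15 were pseudogenes, 5 in replicate 1 and 10 in replicate 2. Rpl30-ps10, a ribosomal protein pseudogene, was estimated at 110 reads and 20.6 TPM in replicate 1 and 0 TPM in replicate 2, with posterior SDs of 27.7 and 20.0 reads. Gm12191 was at 0 TPM in replicate 1 and 17.9 TPM in replicate 2, with posterior SDs of 24.8 and 34.0 reads. The long noncoding gene Gm13861 had 56 reads and 6.57 TPM in replicate 1 and 0 reads in replicate 2, with a posterior SD of 0 in both. The values were chosen after they were seen.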
